A study of Schmidtea mediterranea with 6 samples.

Results

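A set of 192 gene IDs of the planarian flatworm Schmidtea mediterranea, of 36035 in the deposited tables, kept between 5% and 25% of their level 3 days after lethal irradiation. They were selected from the measured values. A member had a mean of at least 2 TPM (a level scaled for gene length and to the same total in each library) in unirradiated animals and an irradiated mean above 0.05 and up to 0.25 times the unirradiated mean. Each irradiated library also lay below each unirradiated library. The fall of the members, its size and the separation of the groups were therefore fixed by the selection and are given below as descriptions, with no test.

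Whole-body RNA was sequenced from animals 3 days after lethal irradiation (labelled 3dpi, 3 libraries) and from animals without treatment at day 0 (labelled WT, 3 libraries). Both groups carry the genotype label WT, and the labels give no strain, age, radiation dose or number of animals per library. Treatment and sampling day change together, so irradiation and the days between the samplings cannot be told apart. Library totals lay between 12635699 and 20914353 estimated counts, with replicate 3 the deepest in both groups. Whether replicates were separate animals is not stated, so SDs and p-values here describe a spread that may be technical.

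Planarians replace all their tissues from a population of dividing stem cells, the neoblasts, which are the only somatic cells known to divide in the adult. Irradiation at a lethal dose is known to eliminate neoblasts first, while their postmitotic descendants on the way to the epidermis and other tissues disappear later, as they mature without being replaced. Transcripts of differentiated tissue are known to persist longer. Bulk libraries show only relative abundance: fewer cells of a type and less RNA per cell cannot be told apart in them. The IDs come without gene names, and no annotation of them was used here. No function is therefore given for any member, and the whole-body label could not be checked against marker genes.

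In steps of 5%, the members lay in the thin part of the distribution between transcripts nearly lost and transcripts moderately lowered. Among gene IDs of at least 2 TPM with groups that did not overlap, 120 kept 5% of their level or less. The members counted 43 between 5% and 10%, 38 between 10% and 15%, 53 between 15% and 20%, and 58 between 20% and 25%. The next interval, between 25% and 30%, held 62, and the one between 45% and 50% held 226. No gap separated the members from the moderately lowered transcripts at the upper bound. Of 18040 gene IDs of at least 2 TPM, 22.9% had every irradiated library below every unirradiated library. A further 10 gene IDs met the level and ratio conditions with groups that overlapped, and 294 met all conditions except the level of 2 TPM.

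**Figure D1:**
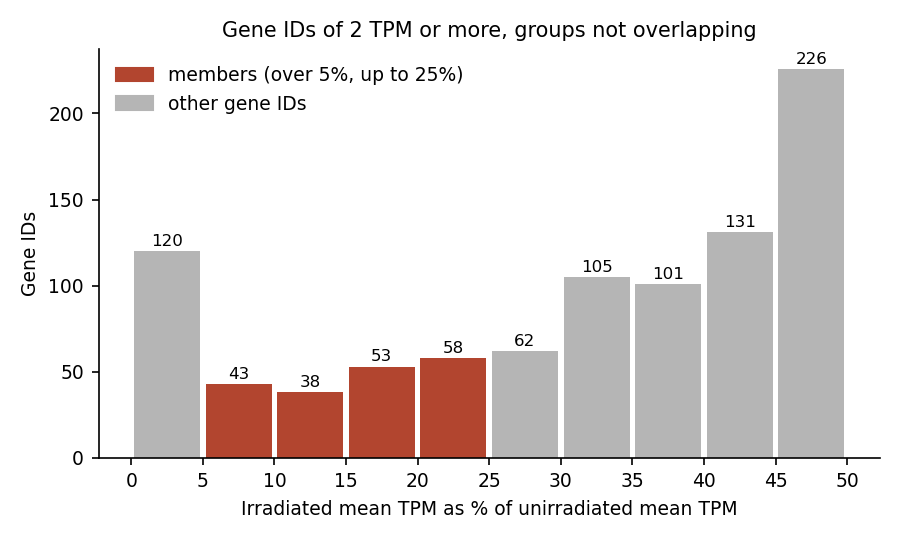
Number of gene IDs (vertical axis) by the irradiated mean as a percent of the unirradiated mean (horizontal axis, steps of 5%), for gene IDs of 2 TPM or more whose groups did not overlap. Members are red and others grey: the 4 member bars hold 38 to 58 gene IDs each, below the 120 at 5% or less and the 226 between 45% and 50%.

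The 6 most abundant members were followed in every library. SMED30019803 had 81.9, 82.0 and 81.4 TPM in irradiated libraries, against 869.6, 870.5 and 833.6 TPM in unirradiated libraries. The irradiated libraries were nearly equal, at 9.53% ± 0.04 of the unirradiated mean (SD, n = 3). Its counts were 2367 in the irradiated group and 26169 in the unirradiated group, and the exact 95% counting interval of the level left ran from 9.26% to 10.1%. This residue of close to 10% was the most precisely measured among the 6.

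SMED30015328 had 59.1, 45.9 and 39.1 TPM in irradiated libraries, against 331.2, 376.1 and 393.2 TPM in unirradiated libraries. It kept 13.1% ± 2.8 (SD, n = 3), and irradiated replicate 1 held the highest level. SMED30032293 had 31.7, 17.9 and 31.0 TPM in irradiated libraries, against 263.1, 229.7 and 208.7 TPM in unirradiated libraries. It kept 11.5% ± 3.3 (SD, n = 3), with irradiated replicate 2 below the other irradiated libraries. In both members the irradiated and unirradiated libraries were separated by more than 100 TPM.

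SMED30014813 kept more, with 53.1, 52.8 and 57.6 TPM in irradiated libraries, against 235.9, 224.0 and 239.1 TPM in unirradiated libraries. The level left was 23.4% ± 1.2 (SD, n = 3), near the upper bound. Its estimated count was whole in 0 of 6 libraries, which can arise when a program splits reads among similar genes, so its level is uncertain. SMED30023781 had 20.6, 22.5 and 19.5 TPM in irradiated libraries, against 81.1, 91.2 and 102.5 TPM in unirradiated libraries. It kept 22.8% ± 1.6 (SD, n = 3) and rested on 66 irradiated counts, so its counting interval was wider, from 17.4% to 30.1%.

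SMED30016016 was the exception among the abundant members. It had 7.64, 66.3 and 8.17 TPM in irradiated libraries, against 70.9, 67.2 and 202.4 TPM in unirradiated libraries. Irradiated replicate 2 came within about 1 TPM of the lowest unirradiated library, and unirradiated replicate 3 stood far above the other unirradiated libraries. The level left was 24.1% ± 29.7 (SD, n = 3). Without irradiated replicate 2 it was 6.96%, still inside the bounds. It was 32.8% without irradiated replicate 1, 32.6% without irradiated replicate 3 and 39.6% without unirradiated replicate 3, each of which takes this gene ID out of the set. Its relative length was 0.062, where 1 is the median of all gene IDs of at least 2 TPM.

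**Figure D2:**
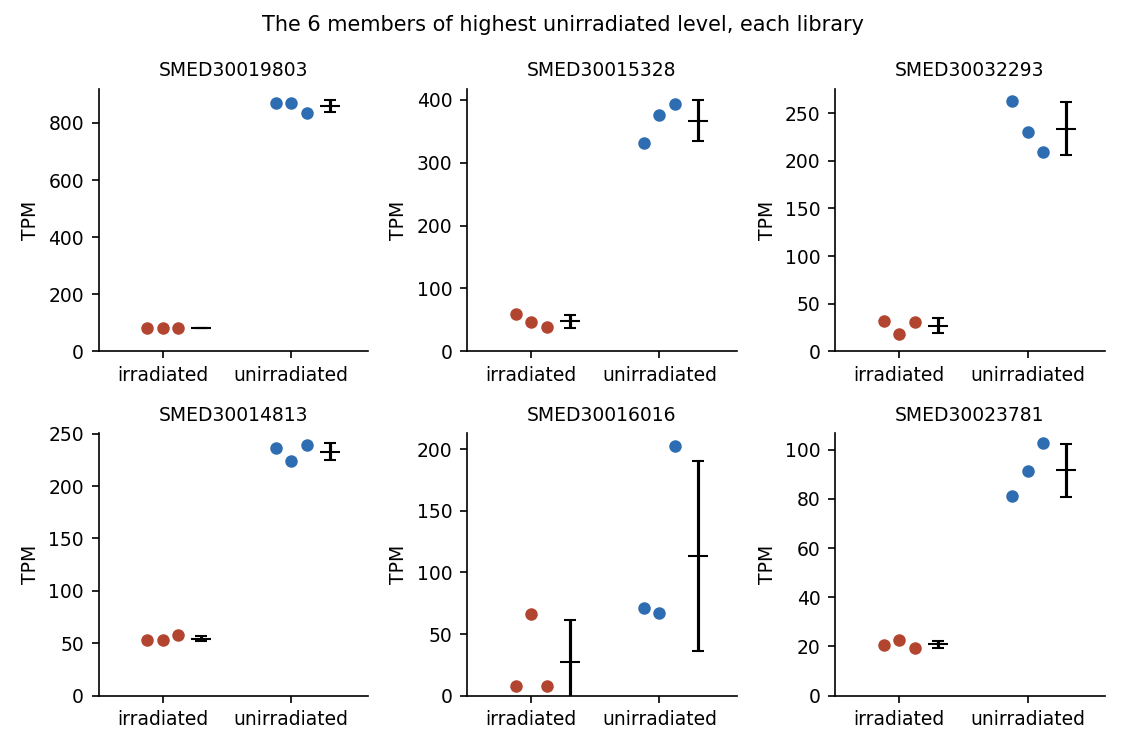
TPM of the 6 members of highest unirradiated level, in each irradiated (red) and unirradiated (blue) library, with the group mean and SD in black (n = 3 each). The bar of SMED30016016 in irradiated libraries runs below the axis. This member had 1 irradiated library at 66.3 TPM beside 7.64 and 8.17 TPM, while the groups of the others stood well apart.

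Members at the bounds of the selection showed how much each bound rests on counts. Just inside 5%, SMED30034338 had 0.18, 0.35 and 0.46 TPM in irradiated libraries, against 7.26, 5.96 and 6.42 TPM in unirradiated libraries, which left 5.03%. SMED30016549, also just inside at 5.08%, had 2 irradiated counts and 42 unirradiated counts. Its level left went to 3.08% without irradiated replicate 1 and 7.63% without irradiated replicate 2. Just outside, SMED30028665 kept 4.998% and SMED30018240 4.75%. The counting intervals of these 4 gene IDs all included 5%, so the lower bound did not divide them by more than counting error.

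At the upper bound the same held. SMED30007420 had 3.43, 3.33 and 3.49 TPM in irradiated libraries, against 13.0, 13.0 and 15.2 TPM in unirradiated libraries, and kept 24.9%. SMED30000190 had 4.98, 5.03 and 5.19 TPM in irradiated libraries, against 19.6, 22.0 and 19.4 TPM in unirradiated libraries, and kept 24.9% too. Just outside, SMED30016119 kept 25.05%, with 17 irradiated counts and whole estimated counts in 0 of 6 libraries, and SMED30026014 kept 25.07%. The counting intervals of these 4 all included 25%. At the level bound of 2 TPM stood SMED30008265, with 3 irradiated counts and 14 unirradiated counts, and SMED30034829, with 89 irradiated counts and 472 unirradiated counts. Leaving out unirradiated replicate 2 moved the level left of SMED30008265 to 33.7%, against 22.0% with all libraries.

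Most members were scarce transcripts, and a few abundant ones made up a large part of the summed TPM of the set. The median level was 0.63 TPM in irradiated animals and 4.16 TPM in unirradiated animals. Over all gene IDs of at least 2 TPM the unirradiated median was 9.42 TPM. It was 5.47 TPM for the gene IDs at 5% or less and 7.56 TPM for those between 25% and 50%. These differences were not tested. By unirradiated level, 115 members lay between 2 and 5 TPM, 48 between 5 and 20, 24 between 20 and 100, and 5 at 100 TPM or more. SMED30019803 alone held 15.3% of the members' summed TPM in irradiated animals and 23.8% in unirradiated animals. The 6 most abundant members held 48.5% in irradiated animals and 52.7% in unirradiated animals.

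The level left did not rise or fall steadily with abundance. Its median was 16.4% in the class of 2 to 5 TPM, 14.2% between 5 and 20 TPM, 19.8% between 20 and 100 TPM and 13.1% in the 5 members of 100 TPM or more. The quartiles of the 3 larger classes overlapped widely, for example 10.7% to 20.4% in the lowest class and 14.5% to 21.8% between 20 and 100 TPM. The bounds of the selection confine all these values, and the class of 2 to 5 TPM rested on a median of 12 irradiated counts.

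The set as a whole took a small and steady share of the transcript pool. It held 0.0519%, 0.0548% and 0.0535% of all TPM in the irradiated libraries, against 0.354%, 0.359% and 0.366% in the unirradiated libraries. The mean was 0.0534% ± 0.0015 in irradiated and 0.360% ± 0.006 in unirradiated animals (SD, n = 3 each). The share in irradiated replicate 2 includes SMED30016016 at 66.3 TPM, against 7.64 and 8.17 TPM in irradiated replicates 1 and 3. Summed over members, 14.8% ± 0.4 of the unirradiated TPM was left. In comparison, the 120 gene IDs at 5% or less held 0.00274% in irradiated and 0.857% in unirradiated animals, and the 625 between 25% and 50% held 1.20% in irradiated and 2.96% in unirradiated animals. The members' part of the pool in unirradiated animals was therefore smaller than that of either neighbouring class, which are defined by the same contrast.

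The 3 irradiated libraries kept similar levels. The median member stood at 15.6%, 14.95% and 16.6% of its unirradiated mean in irradiated replicates 1, 2 and 3. Among the 41 members with at least 100 irradiated counts, replicate 1 was highest for 14, replicate 2 for 12 and replicate 3 for 15. Replicate 1 was lowest for 14 of these members, replicate 2 for 17 and replicate 3 for 10. No irradiated library was thus the highest throughout these 41 members. This does not extend to the members with few counts: 16 of the 192 had no count in 2 of the 3 irradiated libraries. In unirradiated animals, replicate 1 was the lowest for 21 of the 41, at a median of 96.0% of the group mean.

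The residue of single members was measured with very different precision. Irradiated counts per member, summed over the 3 libraries, ran from 1 to 2367 with a median of 26. Of the 192 members, 59 had fewer than 10 such counts, 92 had 10 to 99 and 41 had 100 or more. The selection itself requires a count in every unirradiated library, since each must lie above all irradiated libraries. In irradiated libraries, 43 members had no count in at least 1 and 16 had none in 2. Members without a count numbered 22, 22 and 15 in irradiated replicates 1 to 3, fewest in the deepest library.

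Counting intervals lay between the bounds for only part of the set. The exact 95% interval of the level left lay within 5% to 25% for 65 members. It passed 25% alone for 73, reached 5% alone for 23 and passed both for 31. For 164 of the 192 the interval stayed below 50%, and for 2 it reached 100%. Of the 41 members with 100 or more irradiated counts, 27 had an interval inside the bounds, against 38 of 92 with 10 to 99 counts and 0 of 59 with fewer. These intervals cover counting error only, since counts were summed per group and the spread between libraries does not enter. Copies made by PCR, if counted as separate reads, are not allowed for either. An interval inside the bounds therefore does not make membership firm. That of SMED30016016 ran from 14.8% to 24.5%, while its irradiated libraries stood at 6.73%, 58.4% and 7.20% of the unirradiated mean.

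**Figure D3:**
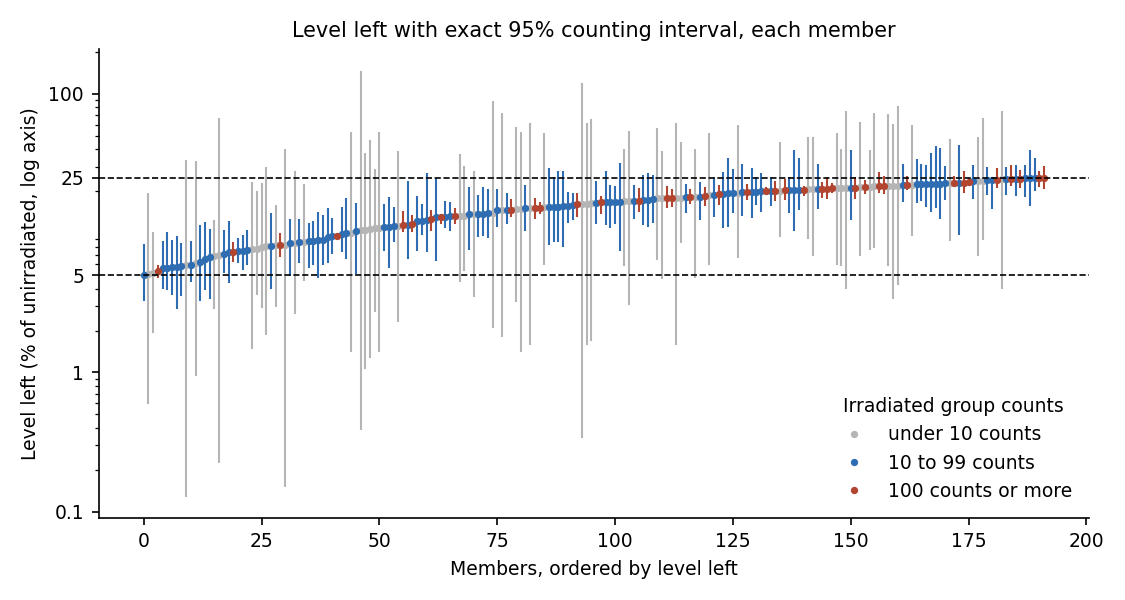
Level left (percent of the unirradiated mean, log axis) with the exact 95% counting interval for each of the 192 members, ordered by level left; colour gives the counts in the irradiated group and dashed lines mark 5% and 25%. Members with fewer than 10 counts (grey) have intervals that pass a bound in all 59 cases, while 27 of the 41 with 100 or more (red) stay inside.

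Leaving out single libraries gave the same order of reliability. The level left moved by more than 1.5 times on leaving out 1 library for 57 members. These were 45 of the 59 members with fewer than 10 irradiated counts, 12 of the 92 with 10 to 99 and 0 of the 41 with 100 or more. Among members with at least 10 counts in a group, the highest library was more than 2-fold above the next for 9 of 133 in irradiated and 11 of 190 in unirradiated animals.

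The selection was then repeated on 2 irradiated and 2 unirradiated libraries, and the level left was read in the pair not used, for all 9 pairs. The pairs share libraries, the 192 themselves had been selected on all 6, and each reading compares 1 library with 1, so no test was made. Between 207 and 236 gene IDs were selected, of which 152 to 161 belonged to the 192. Their median level left in the unused pair was 16.4% to 20.9%, against 15.9% to 17.1% in the libraries that selected them. The lower quartile lay at 8.15% to 11.7% and the upper quartile at 29.9% to 39.2%.

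The size of the fall in the unused pair was within the bounds for part of the gene IDs selected. The irradiated library of that pair lay below its unirradiated library for 87.2% to 91.9% of those selected, against 42.3% to 48.2% of all gene IDs of at least 2 TPM in the libraries used. Of those selected, 46.2% to 53.4% stayed between 5% and 25% in the unused pair, against 1.26% to 1.41% of all gene IDs. A further 8.44% to 16.7% of those selected were at 5% or less, and 63 to 98 gene IDs were above 25%. With at least 200 counts in the unirradiated libraries used, 67 to 88 gene IDs were selected. Their median in the unused pair was 15.7% to 17.3%, and 70.1% to 80.8% stayed within the bounds. With fewer counts, 31.1% to 37.7% did.

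**Figure D4:**
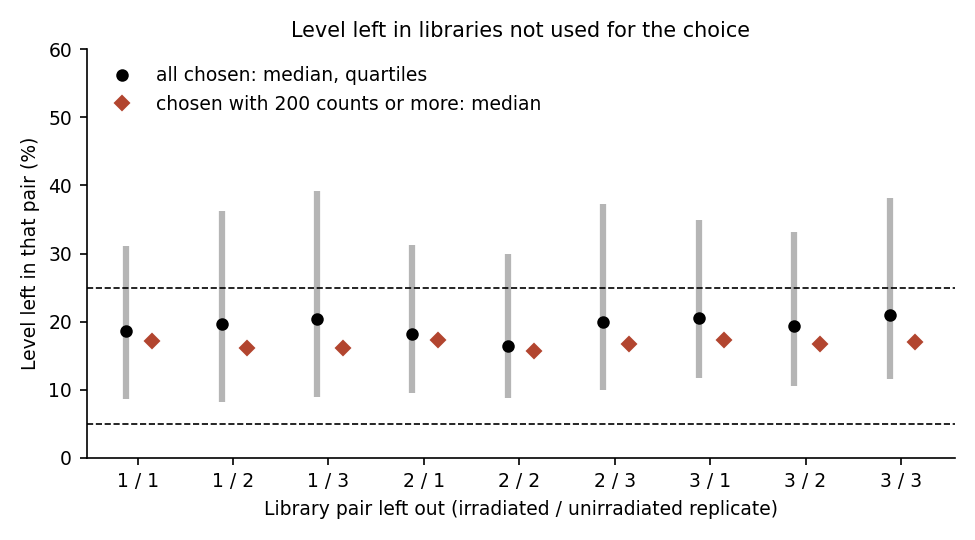
Level left (percent) in each pair of libraries not used for the selection, labelled by irradiated and unirradiated replicate. Black points and grey bars give the median and quartiles of all gene IDs selected, red diamonds the median of those with 200 or more unirradiated counts, and dashed lines 5% and 25%; all medians lie between 15.7% and 20.9%.

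Effective length, which enters the selection only through the TPM values, was short for many members. It was computed as count over TPM in each library and is relative, with 1 as the median of the 18040 gene IDs of at least 2 TPM. The members' median was 0.65, with quartiles of 0.24 and 1.58, against quartiles of 0.38 and 1.90 for all these gene IDs. A total of 75 members (39.1%) fell in the shortest length class and 34 (17.7%) in the longest, where each of 4 classes holds 25% of all these gene IDs. The shortest class held 27.5% of the gene IDs at 5% or less and 31.5% of those between 25% and 50%. Gene IDs are not replicates, and the differences between these shares were not tested.

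Members with few counts were mostly short, but not every short member had few counts. In the shortest length class the irradiated counts ran from 1 to 583, with a median of 5. The 6 most abundant members had relative lengths from 0.062 to 0.578. The 59 members with fewer than 10 irradiated counts had a median relative length of 0.16, the 92 with 10 to 99 counts 0.93, and the 41 with 100 or more 1.59. Among members with at least 500 unirradiated counts (53), the median length was 1.59, against 1.65 for the 9717 gene IDs with as many counts. The part of low counts in the short length of the set was not tested. The shortest member, SMED30032037, with a relative length of 0.033, had 0, 1 and 0 counts in irradiated libraries, against 3, 2 and 2 in unirradiated libraries. Its level left was 16.2% with all libraries and 0% without irradiated replicate 2. The longest, SMED30018210, at 7.003, had 0.58, 0.43 and 0.46 TPM in irradiated libraries, against 2.41, 2.73 and 2.63 TPM in unirradiated libraries, and kept 19.0% ± 3.1 (SD, n = 3). It had 170 irradiated counts, so its scarcity in TPM did not make its residue uncertain.

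**Figure D5:**
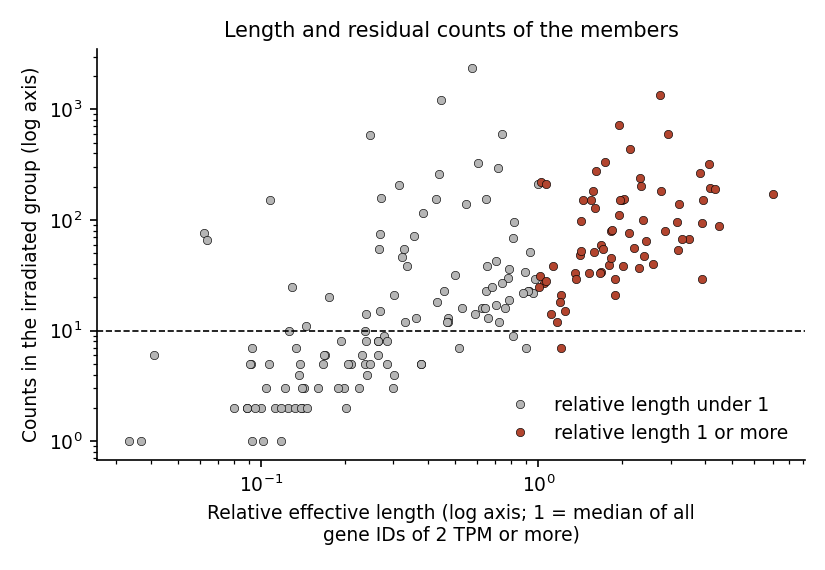
Counts in the irradiated group (log axis) by relative effective length (log axis, 1 = median of all gene IDs of 2 TPM or more) for the 192 members; grey members are shorter than 1 and red ones 1 or longer. Most members below the dashed line at 10 counts are short, with a median relative length of 0.16 for those 59.

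The level left did not follow length. Its median was 16.8% in the 75 members of the shortest class, 17.1% in the next class (47 members), 14.5% in the third (36 members) and 16.5% in the longest (34 members). All 4 medians lay within the quartiles of every other class, and the selection confines them. Whole-number counts in all libraries, which leave no sign of split reads, were found for 173 of 192 members (90.1%) and for 87.1% of all gene IDs of at least 2 TPM. The other 19 members are uncertain in the way described for SMED30014813.

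The spread of members between libraries of a group was above counting error in most count classes. It was measured by chi-square per degree of freedom, for which counting error alone would give a median of 0.69 and 4.98% of values over 3. In irradiated libraries the median was 1.10 for the 92 members with 10 to 99 counts there, against 1.18 for 3542 gene IDs of the same count range. Values over 3 made up 15.2% of these members and 17.1% of these gene IDs. For 38 members with 100 to 999 irradiated counts the median was 0.83, against 1.43 for 7650 gene IDs. Here 21.1% of the members and 24.6% of the gene IDs were over 3. Only 3 members had 1000 or more irradiated counts.

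In unirradiated libraries the median rose with the counts, as it did over all gene IDs. It was 1.10 for 66 members and 1.10 for 3512 gene IDs with 10 to 99 counts, and 1.31 for 97 members and 1.26 for 7608 gene IDs with 100 to 999. With 1000 or more counts it was 1.83 for 27 members and 2.13 for 6859 gene IDs. Members over 3 made up 10.6%, 18.6% and 33.3% of these classes, against 14.6%, 19.6% and 39.4% of all gene IDs. The condition that groups do not overlap limits this spread among members, and no test of the difference was made.

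In a fit to all genes, 143 of the 192 members passed the low-count filter and 49 did not. The 49 had 6 to 44 unirradiated counts and a median relative length of 0.14. All 143 were called lower in irradiated animals by edgeR's quasi-likelihood test, at an adjusted p below 0.05, where 20.4% of all genes tested were called lower. DESeq2 called 140 of 141 members it tested, against 16.2% of all genes. On log2 TPM, limma called 141 of 143 with a pseudocount of 0.1 and 142 of 143 with a pseudocount of 1, against 15.7% and 15.9% of all genes. The same contrast chose the members, so these counts add nothing about them.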

How the data were processed

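Whole-body RNA of 3 irradiated and 3 unirradiated samples was sequenced. Per the labels' protocols, TRIGene reagent was used to isolate total RNA, and a NEBNext kit for Illumina to build the libraries. The authors deposited estimated counts per gene ID and, in a second table, TPM. The aligner, counter, transcript set and build are not given in the sources used. Columns were matched to samples by the description label. The members and lists were chosen with earlier results of these data known, and the marker lists could not be used, since 0 gene IDs carry a name. The gene IDs named are the 6 members of highest unirradiated TPM, those next to each bound, and the longest and shortest.

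Level left is the irradiated mean TPM over the unirradiated mean, with its SD over the 3 irradiated libraries, each divided by the unirradiated mean. Counting intervals are exact conditional binomial (Clopper-Pearson, 95%) on counts summed per group, scaled by the libraries' median ratio of count to TPM. Counts were rounded to whole numbers and called whole at a tolerance of 1e-06. edgeR 4.0.16 under R 4.3.3 used the default filter (minimum count 10), TMM, the quasi-likelihood test without covariates and Benjamini-Hochberg adjustment over all genes tested. DESeq2 1.42.0 and limma 3.58.1 were alternatives. The selection rule, the counting intervals and the edgeR fit were tested on simulated data, the rule and intervals with counting error only.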

Additional observations from a re-analysis of the deposited data

How the results depend on the processing

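The 192 members became 77 with a level of at least 5 TPM and lay between 128 and 280 under the other settings. With 1 TPM added to each mean, 128 gene IDs were selected, of which 59 were among the 192, and the median level left was 17.9% in place of 16.4%; under the other settings it moved by less than the SD between irradiated libraries (0.83). Leaving out 1 library gave 193 to 216 members, of which 158 to 178 were among the 192. Their median level left was 15.6% to 17.1%, and 144 to 153 of the 192 were called lower. With the replicate number as a block, 143 members were called lower, as without it, and the block changed no call among them. No source says that numbers pair the samples, and deviations of equal numbers correlated at -0.06, 0.06 and -0.08. Over all settings 102 to 176 members were called lower, the ends coming from the stricter filter and from none, which test 102 and 192 members. Of 224 log2 fold changes of 15 named gene IDs, 220 kept direction and call and 0 reversed. The other 4 concern SMED30016016, not called with DESeq2 (-2.09, adjusted p = 0.145), with limma on log2(TPM + 1) (-2.52, adjusted p = 0.0518) or log2(TPM + 0.1) (-2.61, adjusted p = 0.0532), or in edgeR without unirradiated replicate 3 (-1.48, adjusted p = 0.0603); its edgeR value was -2.28 (adjusted p = 0.00483). The cause was not tested. Depth limits the 59 members with fewer than 10 irradiated counts.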
